A study of Mus musculus with 6 samples.

Results

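The peroxisome proliferator-activated receptors (PPARs), the retinoid X receptors (RXRs) they pair with, and a set of their cofactors were followed in liver of Fra-1hep mice. The 10 genes, of 19752 with a symbol on the array, were Ppara, Ppard and Pparg, Rxra, Rxrb and Rxrg, the coactivators Ppargc1a, Ppargc1b and Med1, and the corepressor Ncor1. They were taken from every non-control probe whose RefSeq accession belongs to one of these symbols, which gave 19 of the 55681 probes on the array, and each probe was kept apart. All 19 passed the background filter, as did 30105 probes in all. Of the 10 genes, 4 (Ppard, Pparg, Rxrb and Ppargc1b) had 1 probe.

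PPARs are nuclear receptors that bind fatty acids and their derivatives. They act as heterodimers with an RXR on response elements built from a repeated hexamer. In hepatocytes PPARα drives fatty acid oxidation and PPARδ has overlapping targets, while PPARγ, the receptor that directs fat cell formation, is low in normal liver and is known for promoting lipid storage in steatotic liver. Without ligand such receptors can hold corepressors of the NCoR and SMRT family, and with ligand they take up coactivators, among them the PGC-1 proteins and the Mediator complex through its subunit MED1.

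Fra-1hep mice make extra Fra-1 in hepatocytes and are of the C57BL/6J strain. Fra-1 is the product of Fosl1 and a component of AP-1 dimers. The sources used here do not name the promoter of the transgene. Each of 5 Agilent arrays of the dual-colour kind carried liver RNA of a single Fra-1hep mouse (Cy5) beside wild-type liver RNA pooled from 5 C57BL/6J mice on chow (Cy3). The last of the 6 arrays had the dyes swapped, with pooled Fra-1hep RNA as Cy3 and pooled wild-type RNA as Cy5. All animals were 26 to 28 weeks old and untreated. The series design text speaks of 6 single mutant mice, whereas the sample labels give 5 and a pool, and the labels were followed.

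Mice 2 and 3 differed by 1.05 times the spread expected from replicate spots, against 1.80 to 2.24 times for the other pairs of mice, and were averaged to 1 sample, so that n = 4 Fra-1hep samples. Wild type is 1 pooled sample, so no error given here holds a spread between wild-type mice. The SEs and intervals of the fit come from the spread between Fra-1hep samples, moderated by limma with the variance over all probes. That shared variance weighs more than the probe's own (5.15 prior against 3 residual degrees of freedom). The number of arrays limits the precision, and no spot was saturated (0 on each array). The Fosl1 probe did not rise clearly over background in either channel (0 of 6 arrays), and its log2 ratio was -0.07 (SE 0.06), so the labels could not be checked on the overexpressed gene. All 11 hepatocyte markers on the array exceeded background in each channel of the 6 arrays. Of all 30105 probes, 11.6% changed at an adjusted p under 0.05 (limma, Benjamini-Hochberg over all probes), 1663 upwards (5.52%) and 1820 downwards (6.05%). With each array centred on its median in place of the loess curve, the split was 2934 higher and 1016 lower.

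The promoters of Pparg are shown because it was the receptor with the large change and has several start sites, and the position of its single probe is not known here. RefSeq (GRCm38.p6) windows from 250 bases before to 50 after a start site were found for 9 of the 10 genes, 15 windows in all, and 3 of them belong to Pparg. Capitals mark AGGTCA, the hexamer that nuclear receptor elements are built from, on either strand. Each window lies on the plus strand and is printed 5′ to 3′, the first at chr6:115360894-115361193, the second at chr6:115362099-115362398 and the third at chr6:115421816-115422115.
Pparg start 1: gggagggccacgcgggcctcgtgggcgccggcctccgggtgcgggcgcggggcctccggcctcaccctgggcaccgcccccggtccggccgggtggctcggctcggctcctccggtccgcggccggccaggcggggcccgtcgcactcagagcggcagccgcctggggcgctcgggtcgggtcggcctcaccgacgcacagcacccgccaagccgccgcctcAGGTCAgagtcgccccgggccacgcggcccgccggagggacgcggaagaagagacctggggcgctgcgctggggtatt
Pparg start 2: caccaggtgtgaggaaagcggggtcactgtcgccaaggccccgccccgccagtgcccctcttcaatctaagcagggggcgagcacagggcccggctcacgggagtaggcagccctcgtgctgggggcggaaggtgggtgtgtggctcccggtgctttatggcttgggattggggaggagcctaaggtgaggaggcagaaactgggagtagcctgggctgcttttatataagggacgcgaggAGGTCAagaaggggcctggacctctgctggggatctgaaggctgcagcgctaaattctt
Pparg start 3: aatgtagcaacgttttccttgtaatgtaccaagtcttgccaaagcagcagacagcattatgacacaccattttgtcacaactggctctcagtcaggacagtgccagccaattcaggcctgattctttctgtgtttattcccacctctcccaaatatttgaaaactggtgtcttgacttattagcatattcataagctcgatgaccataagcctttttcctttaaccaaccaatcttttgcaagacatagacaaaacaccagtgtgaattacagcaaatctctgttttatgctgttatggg
The first and second windows hold 1 hexamer each, beginning at -28 and -9 from the start site, and the third holds 0. The letters TGANTCA, with any base at N, are looser than the AP-1 site, which has C or G there. Searched on both strands, they occur in 0 of the 15 windows of these genes and in 7.81% of 32851 such mouse windows. The hexamer occurs in 16.3% of all windows, and among the other genes of the set in 1 window each of Rxra and Rxrg.

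Of the 3 PPAR genes, Pparg fell in Fra-1hep liver and Ppara and Ppard did not pass the test. Pparg (probe A_51_P106799, NM_011146) gave a processed signal of 450, 512, 532, 607 and 610 in mice 1 to 5 and 487 in the Fra-1hep pool. In the wild-type channel of the same arrays it gave 1607, 1834, 1960, 1574, 1238 and 1538. The ranges did not overlap, and the highest Fra-1hep signal (610) was below the lowest wild-type signal (1238). All wild-type values are measurements of pooled RNA, so their range holds no spread between mice. The share of all probes without overlap was not computed. Both limits also apply to the Rxrg and Med1 signals below. The log2 ratios were -1.66, -1.67, -1.70, -1.25 and -0.87 in mice 1 to 5 and -1.48 in the dye-swapped pool. The fit put Pparg at -1.43 on the log2 scale (SE 0.14, 95% interval -1.75 to -1.10, adjusted p = 0.000802), or 2.69-fold lower, and lower on 6 of 6 arrays. Among all tested probes, 0.541% had a change of this size or larger in either direction.

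The Pparg probe is printed 10 times on each array, which gives a measure of technical error. Of 60 spots 57 were used, as 3 carried outlier marks. The SD between spots of an array was 0.05 to 0.10, and every spot was below 0, from -1.80 to -0.73. Mouse 5 (spots from -1.05 to -0.73) and mouse 4 (from -1.37 to -1.08) showed the smaller falls, and the spots of mice 1, 2 and 3 (from -1.80 to -1.49) overlapped with neither. The SD between the 4 mouse samples was 0.39, above the SD between spots on any of the arrays.

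**Figure D1:**
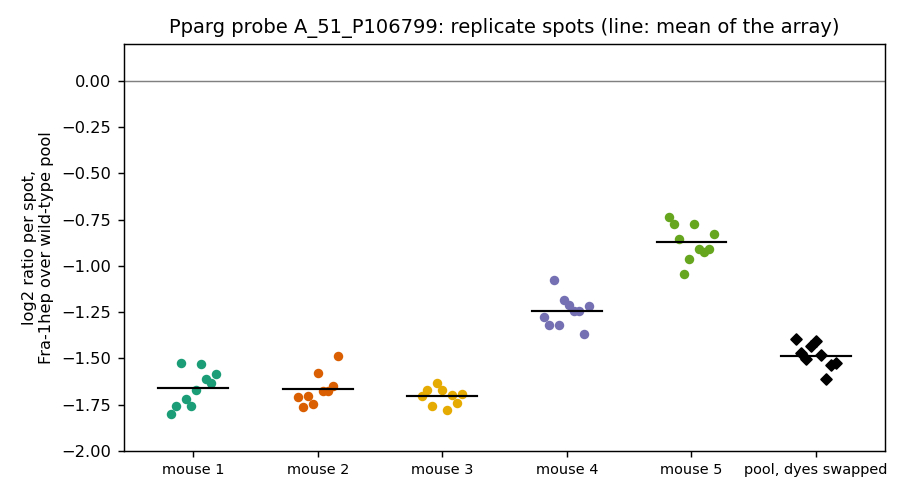
Log2 ratio of Fra-1hep over the wild-type pool (y axis) for each spot of the Pparg probe on the 6 arrays (x axis), with a line at the mean of each array. All 57 points lie below 0, and mice 4 and 5 lie closer to 0 than mice 1 to 3.

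Ppara, the main hepatic PPAR, had 3 probes of accession NM_011144. Its brightest probe (A_55_P2055854) gave log2 ratios of 0.19, -0.24, -0.17, -0.23 and -0.04 in mice 1 to 5 and -0.25 in the dye-swapped pool. The other probes gave 0.07, -0.37, -0.33, -0.32 and -0.24 in mice 1 to 5 and -0.21 in the pool (A_55_P2071596), and 0.10, -0.41, -0.35, -0.36 and -0.07 in the mice and -0.23 in the pool (A_55_P2071601). All 3 probes were above 0 in mouse 1 and below 0 on the other 5 arrays. The fitted values were -0.16 (95% interval -0.36 to 0.04, adjusted p = 0.291), -0.21 (-0.41 to -0.01, adjusted p = 0.175) and -0.20 (-0.42 to 0.02, adjusted p = 0.242), so none passed. Without mouse 1 the second probe did pass, at -0.25 (adjusted p = 0.0444). The signals of the 2 genotypes overlapped, from 13120 to 18470 in Fra-1hep and from 14170 to 19480 in wild type for the brightest probe.

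Ppard, the most widely expressed PPAR, stood at a fitted log2 ratio of 0.01 (95% interval -0.15 to 0.16, adjusted p = 0.968). Its array values were 0.15, 0.09, 0.01, -0.09 and 0.14 in the mice and -0.05 in the pool, on both sides of 0.

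**Figure D2:**
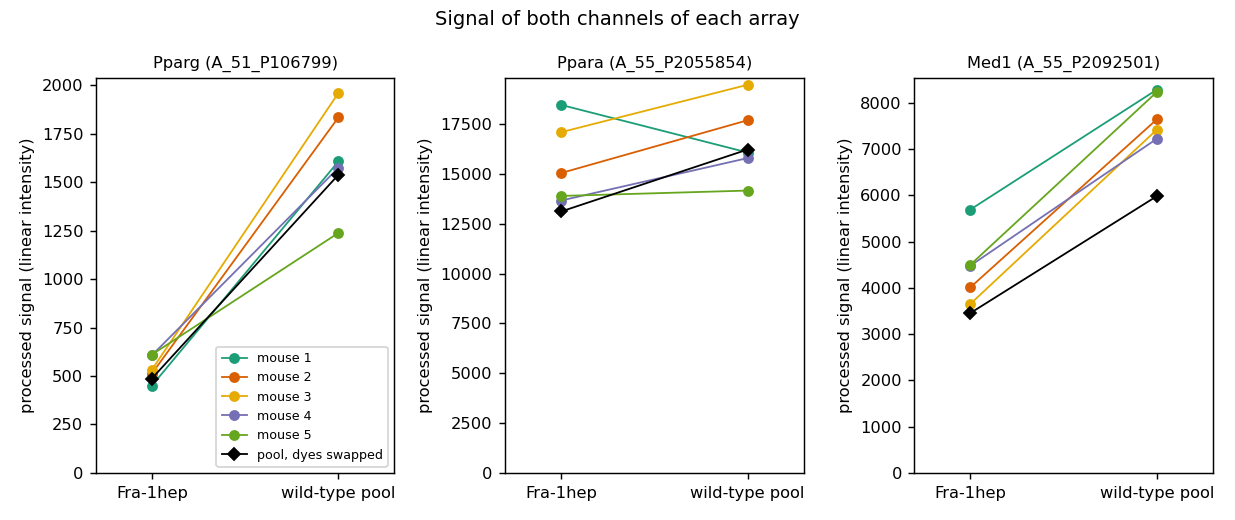
Processed signal (linear intensity, y axis) of 1 probe each of Pparg, Ppara and Med1 in the Fra-1hep channel and the wild-type channel, with a line joining both channels of an array. The Pparg lines run between 450 to 610 in Fra-1hep and 1238 to 1960 in wild type, while the Ppara ranges overlap and the line of mouse 1 slopes the other way. The Med1 lines run between 3456 to 5693 and 5983 to 8285.

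Among the RXR genes, 1 of 5 probes fell and 4 did not pass. Rxrg, the RXR best known from muscle and brain, had log2 ratios of -0.42, -0.61, -0.63, -0.34 and -0.26 in mice 1 to 5 and -0.37 in the pool on probe A_51_P513311. The fit gave -0.39 (SE 0.08, adjusted p = 0.0153), 1.31-fold lower. Signals were 361, 344, 410, 430 and 370 in the mice and 376 in the pool, against 518, 587, 690, 554, 462 and 475 in wild type on the same arrays, with no overlap. The second, brighter Rxrg probe (A_55_P2044359), which cites the same accession, gave 0.02, -0.21, -0.09, -0.11, 0.08 and -0.20 and did not pass (-0.12, adjusted p = 0.315). The fall of Rxrg held on 1 of its 2 probes. That call ended with the scanner software's processed signals (-0.42, adjusted p = 0.0961) and with median centring (-0.27, adjusted p = 0.0558).

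Rxra, the main RXR of hepatocytes, was below 0 on all 6 arrays with probe A_51_P307370, at -0.30, -0.09, -0.35, -0.13 and -0.39 in the mice and -0.12 in the pool. Its fitted value of -0.19 (95% interval -0.35 to -0.04) did not pass after adjustment (adjusted p = 0.117). The other Rxra probe (A_55_P2074331) was at -0.02 (95% interval -0.16 to 0.11, adjusted p = 0.84). Rxrb, the most broadly expressed RXR, was at -0.01 (95% interval -0.14 to 0.13, adjusted p = 0.955). Its ratios were -0.09, -0.11, -0.21, -0.20 and -0.21 in the mice but 0.15 in the dye-swapped pool. Centring on the median turned the sign of the second Rxra probe (0.08) and of Rxrb (0.14), still without passing.

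**Figure D3:**
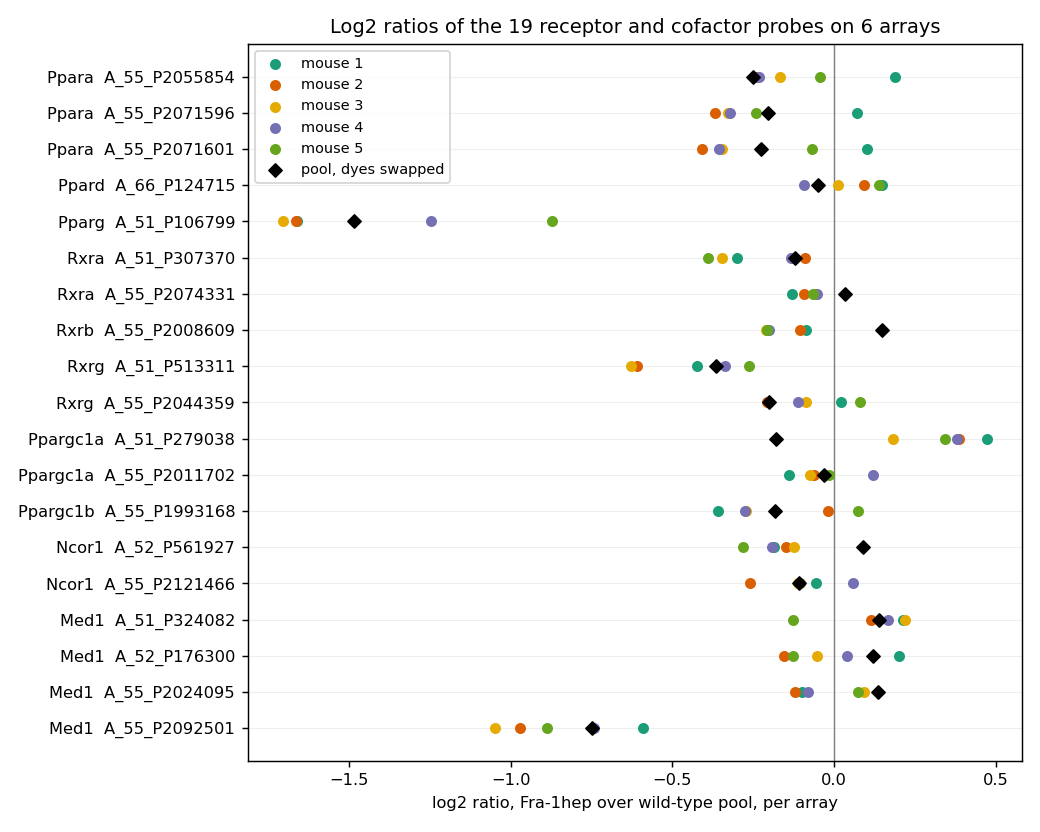
Log2 ratio of Fra-1hep over the wild-type pool (x axis) on each of the 6 arrays for the 19 probes (rows, with gene and probe name). Pparg and 1 Med1 probe lie below -0.5 on all arrays, and for 4 probes the dye-swapped pool (diamond) lies on the other side of 0 from all 5 mice.

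The coactivator genes of the PGC-1 family did not pass. Ppargc1a, whose product PGC-1α is induced in fasting liver and drives gluconeogenic and mitochondrial genes, gave ratios of 0.47, 0.39, 0.18, 0.38 and 0.34 in mice 1 to 5 on probe A_51_P279038. On the dye-swapped array the same probe gave -0.18. With the dye term it stood at 0.10 (95% interval -0.05 to 0.24, adjusted p = 0.39), with a dye effect of 0.27. In the mouse arrays alone, which cannot separate dye from genotype, it was 0.37 (adjusted p = 0.00264). The dimmer Ppargc1a probe (A_55_P2011702, signals of 20.8 to 37.4 in Fra-1hep and 19.6 to 38.6 in wild type) was at -0.03 (adjusted p = 0.845). Ppargc1b, the related coactivator of mitochondrial and lipogenic genes, gave -0.36, -0.02, -0.27, -0.28 and 0.07 in the mice and -0.18 in the pool (fit -0.18, 95% interval -0.38 to 0.02, adjusted p = 0.235). It was dim too, at 27.4 to 103 in Fra-1hep and 40.1 to 92.0 in wild type.

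Ncor1, the corepressor that recruits histone deacetylase 3 to unliganded receptors, had fitted values of -0.05 (A_52_P561927, 95% interval -0.19 to 0.08, adjusted p = 0.639) and -0.09 (A_55_P2121466, 95% interval -0.24 to 0.06, adjusted p = 0.447). The first probe was below 0 in all 5 mice (-0.28 to -0.12) and at 0.09 in the dye-swapped pool. In the mouse arrays alone it passed at -0.20 (adjusted p = 0.0291), while median centring put it at 0.07.

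Med1, which joins nuclear receptors to the Mediator complex, had 4 probes that disagreed. Probe A_55_P2092501 gave -0.59, -0.97, -1.05, -0.74 and -0.89 in mice 1 to 5 and -0.75 in the pool, lower on 6 of 6 arrays. Its fitted value was -0.78 (SE 0.08, adjusted p = 0.0011), 1.72-fold lower. Signals were 5693, 4012, 3654, 4480 and 4500 in the mice and 3456 in the pool, against 8285, 7644, 7421, 7224, 8235 and 5983 in wild type, with no overlap. The other 3 probes were at 0.12 (A_51_P324082, 95% interval -0.05 to 0.30), 0.06 (A_52_P176300, -0.11 to 0.24) and 0.05 (A_55_P2024095, -0.09 to 0.20), with adjusted p of 0.376, 0.682 and 0.652. A_52_P176300 cites the same accession (NM_134027) as the probe that fell. These probes give no single value for Med1 as a gene, and which transcript the probe A_55_P2092501 reads was not tested.

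In all, 3 of 19 probes (15.8%) changed, against 11.6% of all probes. All 3 fell and 0 rose, where 6.05% of all probes fell and 5.52% rose. At an unadjusted p under 0.05 in the same limma fit, 5 were lower and 0 higher. Of all 30105 probes, 3781 were lower and 3896 higher by that measure. The median fitted log2 ratio of the 19 probes was -0.09, against 0.01 over all probes tested. With median centring it turned to 0.01, against 0.08 over all probes. Then 2 of the 19 probes passed, with 3 lower and 2 higher at an unadjusted p under 0.05 in limma. Of all 30105 probes 3950 passed with that centring, with 1965 lower and 7354 higher unadjusted. Pparg was the gene on which every probe changed, but it has 1 probe, so no other could have disagreed. Of the 10 genes 3 had a changed probe. With each gene by its brightest probe 2 of the 10 changed, where 16.1% of all genes with a symbol did. The 16 probes that did not pass lay between -0.21 and 0.12, with 95% limits from -0.42 to 0.30. On all 6 arrays 4 of the 19 probes had 1 sign, a property shared by 25.5% of all tested probes.

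**Figure D4:**
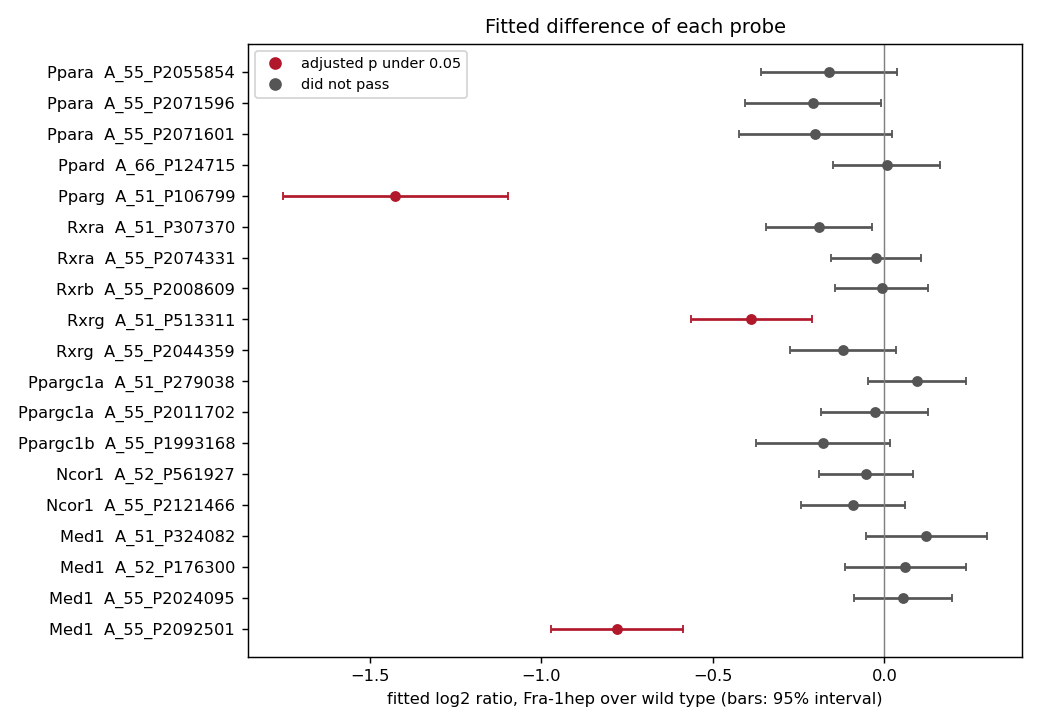
Fitted log2 ratio of Fra-1hep over wild type (x axis) with 95% intervals from limma for the 19 probes (rows). Red points, at -1.43 for Pparg, -0.78 for a Med1 probe and -0.39 for an Rxrg probe, had an adjusted p under 0.05.

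Genes whose ratios over the 6 arrays were closest to those of Pparg were sought among 13952 other genes with a symbol, each by its brightest probe, with the root mean square difference of log2 ratios as the measure. They were Fcgr4 (difference 0.11), Cd300e (0.13) and Gbp6 (0.14), with fitted values of -1.36, -1.29 and -1.43. Fcgr4 encodes an Fc receptor of myeloid cells, Cd300e a surface receptor of monocytes, and Gbp6 an interferon-induced GTPase. For the Med1 probe that fell the closest were Lipn, Tox and Ifi211 (0.12 to 0.14). For the brighter Rxrg probe, which did not pass, they were Sec31b, Plekhm1 and Sec61b (0.03 to 0.04).

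Pparg is expressed in macrophages and fat cells as well as in hepatocytes, and in whole liver RNA fewer cells of a type and less RNA per cell cannot be told apart. Of 14 macrophage markers tested, 12 fell, 0 rose (0 also at an unadjusted p under 0.05 in limma) and 2 did not pass. Over all genes, each by its brightest probe, 7.83% rose and 8.23% fell, which also stands beside the marker counts that follow. The macrophage median log2 ratio was -0.78, -0.82, -0.82, -0.38 and -0.45 in mice 1 to 5 and -0.49 in the pool, beside -1.66, -1.67, -1.70, -1.25, -0.87 and -1.48 for Pparg. The summed signal of the macrophage markers was 53440 to 84460 in Fra-1hep and 92780 to 132600 in wild type, and all 14 were measured above background in each channel of the 6 arrays. Of 12 endothelial markers 9 fell and 1 rose, with a summed signal of 16920 to 20560 in Fra-1hep against 24870 to 32310 in wild type. All 12 were measured above background on every array and channel. Of 10 neutrophil markers 8 rose, with a median of 2.08, and their summed signal was 38200 to 82610 in Fra-1hep against 25920 to 35060 in wild type. Of the 10, 9 were above background in all Fra-1hep channels and 7 in all wild-type channels. Mmp8, among those that rose, passed the filter through the Fra-1hep channel alone. Stellate cells also express Pparg, and of 12 stellate markers 2 rose and 0 fell (1 lower at an unadjusted p under 0.05 in limma). Of 11 T and NK cell markers 7 fell, among them Cd8a, which passed the filter through the wild-type channel alone. Of 11 hepatocyte markers 1 rose, 2 fell and 8 did not pass. Their summed signal was 734600 to 1061000 in Fra-1hep and 664700 to 955200 in wild type. The summed signals of the stellate and of the T and NK markers overlapped between the genotypes as well. The part of any of these cells in the fall of Pparg was not tested.

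Of 8 adipose markers, 3 passed the background filter. Cfd and Cidea fell, by at least 9.08-fold for Cfd. Cidea, which exceeded background on 1 Fra-1hep array and on 6 wild-type channels, was at -0.94 (log2). The size of its fall is poorly set, from -2.86 to -0.83 over 15 alternative settings. Both genes passed the filter through the wild-type channel alone, which left little room for a rise. Lipe, the hormone-sensitive lipase gene and the one of the 8 above background in every channel, did not pass (-0.11, adjusted p = 0.288). The summed signal of all 8 was 91.0 to 137 in Fra-1hep against 699 to 931 in wild type. That sum rests on few genes and does not describe the set as a whole. Of the 8, 3 were above background in all wild-type channels and 1 in all Fra-1hep channels. Plin1 and Lep, which define fat cells, were not above background in either channel (0 of 6 arrays). Adipoq was above background on 0 arrays in Fra-1hep and on 1 in wild type, while Cfd, or adipsin, was above it on 0 in Fra-1hep and on 6 in wild type.

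The target genes of the receptors were taken from a textbook list of 47, of which 46 were tested, each by its brightest probe. Like the members and the other lists, it was chosen with earlier results of these data known. In Fra-1hep liver 3 rose, 21 fell and 22 did not pass, against 7.83% higher and 8.23% lower among 13953 genes with a symbol. Among those that fell, Cidea passed the filter through the wild-type channel alone. Requiring both channels above background on all arrays left 3 higher and 20 lower of 45. The median of the list was -0.24, against 0.00 over those genes. With median centring the list median was -0.09, against 0.08 over all probes, with 5 higher and 19 lower. Over all 30105 probes that centring gave 2934 higher and 1016 lower. In the scanner software's processed signals 12 of the 46 changed. There 1626 of all 30105 probes changed, against 3483 in the fit as reported. Values of the mice and the pool for the list median were -0.22, -0.39, -0.41, -0.51, -0.29 and -0.28.

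Targets that fell most were Cyp4a14 (log2 -6.01, SE 0.18, adjusted p = 2.11e-06) and Cyp4a10 (-2.97, SE 0.33), fatty acid omega-hydroxylases induced through PPARα, and Fabp1 (-2.50, SE 0.30), the liver fatty acid-binding protein that carries ligands to PPARα. Cyp4a10 and Fabp1 no longer passed with an intensity trend and robust variance (adjusted p = 0.0626 and 0.0669). Fitm1, which helps to form lipid droplets, was at -1.64 (SE 0.15). The 3 that rose were Cidec (1.68, SE 0.21, with a further probe at 1.11), which enlarges lipid droplets and is a known PPARγ target in steatotic liver, the lipoprotein lipase gene Lpl (1.37, SE 0.15, with a further probe at 0.82), and Pdk4 (0.63, SE 0.14), an inhibitor of pyruvate dehydrogenase. Pdk4 did not pass with the processed signals (adjusted p = 0.112). Cidec moved in the other direction from Pparg on every array. Its ratios were 2.21, 2.16, 2.16, 1.60 and 0.95 in mice 1 to 5 and 1.63 in the pool. Mice 4 and 5 thus had both the smaller rises of Cidec and the smaller falls of Pparg. The macrophage marker median was also closer to 0 in mice 4 and 5 (-0.38 and -0.45), so this order is not particular to the pair. A link between Cidec and Pparg was not tested.

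**Figure D5:**
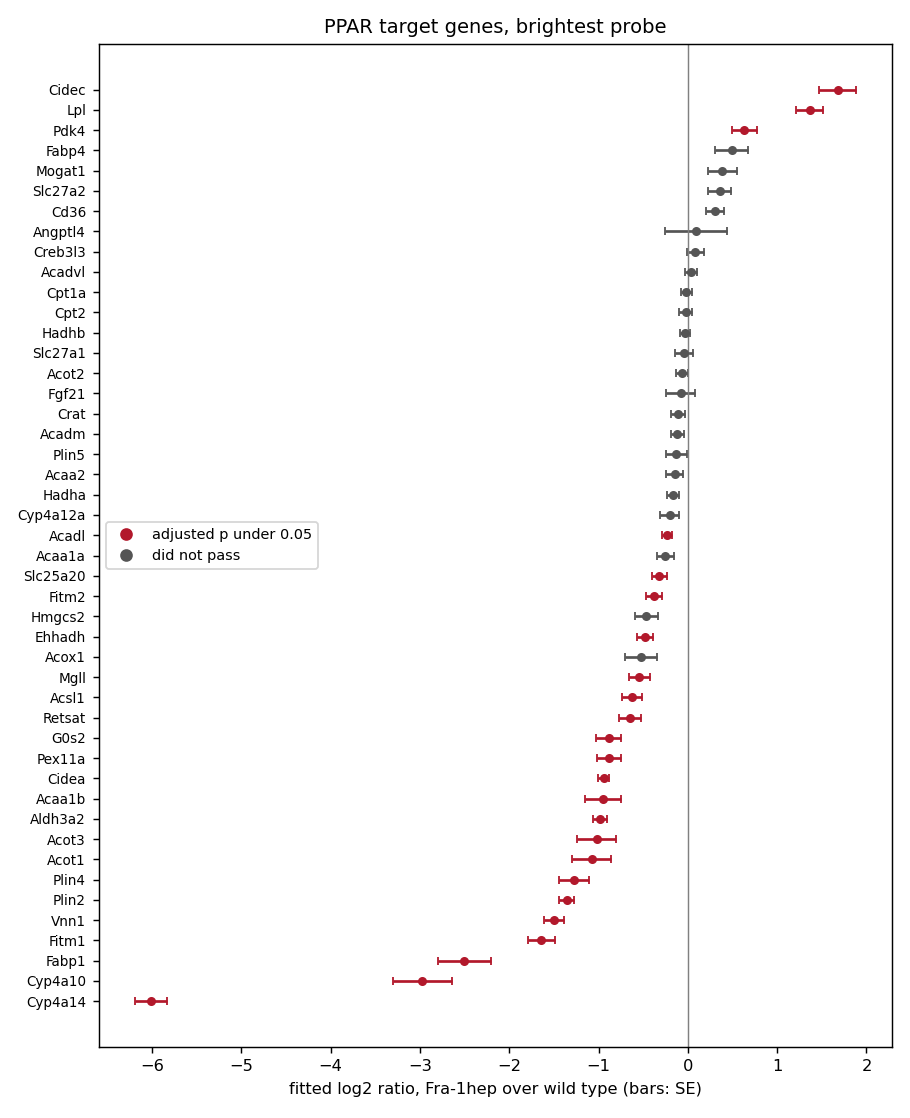
Fitted log2 ratio of Fra-1hep over wild type (x axis, bars are SE) of 46 PPAR target genes by brightest probe, ordered by value. Red points had an adjusted p under 0.05, 21 of them below 0 from Acadl to Cyp4a14 and 3 above 0 (Pdk4, Lpl and Cidec).

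The Fabp1 promoter is shown as an example of the kind of element these receptors bind, a direct repeat of 2 hexamers spaced by 1 base. With the hexamer loosened to AGGNCA, and both strands searched, 1 of 43 windows of the target genes matched, that of Fabp1, against 0.381% of all windows. The window lies at chr6:71199629-71199928 (GRCm38.p6, plus strand, RefSeq), and capitals mark the match, which reads on the minus strand and begins at -67 from the start site.
Fabp1: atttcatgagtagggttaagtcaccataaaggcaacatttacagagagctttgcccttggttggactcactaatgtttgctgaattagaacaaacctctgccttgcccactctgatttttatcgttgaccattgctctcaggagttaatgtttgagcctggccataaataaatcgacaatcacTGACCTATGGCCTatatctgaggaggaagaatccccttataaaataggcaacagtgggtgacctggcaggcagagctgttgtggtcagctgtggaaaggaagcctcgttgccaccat
No window of the 10 receptor and cofactor genes held this repeat (0 of 15).

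Receptors other than PPARs that pair with RXR gave 1 higher, 4 lower and 7 not passed of 12 tested, where 7.83% of all genes rose and 8.23% fell. With median centring 2 were higher and 2 lower, against 2934 and 1016 of all 30105 probes. Rarg (-0.15) and Nr1i2 (-0.23) then did not pass. Nr4a1, an immediate early orphan receptor, was at -1.05 (SE 0.17), Nr1i3, the xenobiotic sensor CAR, at -0.65 (SE 0.12), Nr1i2, the xenobiotic sensor PXR, at -0.38 (SE 0.10, adjusted p = 0.0498) and Rarg, a retinoic acid receptor, at -0.27 (SE 0.06). Thra, a thyroid hormone receptor, was at 0.31 (SE 0.08, adjusted p = 0.0442). The calls of Thra and Nr1i2 ended without single mice (adjusted p up to 0.0789 without mouse 4 and up to 0.0722 without mouse 5). With the processed signals 0 of the 12 passed (limma, 7 at an unadjusted p under 0.05). Of all 30105 probes 1626 passed there (7283 unadjusted).

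Of 27 other coregulators tested, 4 rose and 0 fell (0 also at an unadjusted p under 0.05 in limma), with a median of 0.06. The share changed was near the 16.1% of all genes. With median centring the list median was 0.20, against 0.08 over all probes, and 5 rose, as did 2934 of all 30105 probes. The 4 were Smarcd3 (log2 0.36, SE 0.06, and 0.73 with the processed signals), a subunit of the SWI/SNF chromatin remodeller, Asxl1 (0.31, SE 0.06), a Polycomb-related chromatin protein, Tbl1xr1 (0.28, SE 0.06), a subunit of the NCoR complex, and Prdm16, a zinc finger coregulator of brown fat genes. Prdm16 was not well above background on any wild-type channel. It passed the filter through the Fra-1hep channel alone, which left little room for a fall. It was at least 1.35-fold higher (limma, adjusted p = 0.015). The bound sets its mean Fra-1hep signal against its own wild-type signal or the lowest signal above background, whichever is higher on each array. Tbl1xr1 lost its call without mouse 2 or mouse 4 (adjusted p of 0.0565 and 0.057). Tbl1xr1 and Asxl1 also lost it with the processed signals (adjusted p = 0.09996 and 0.0785), and in the mouse arrays alone Tbl1xr1 was at 0.16.

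Mediator subunits and kinases other than Med1 gave 1 rise and 0 falls among 30 tested (1 lower at an unadjusted p under 0.05 in limma), with values from -0.17 to 0.24, where 7.83% of all genes rose and 8.23% fell. The median was 0.01, and 0.12 with median centring. The rise was that of Cdk19 (log2 0.24, SE 0.06, adjusted p = 0.0337), a kinase of the Mediator module, and it did not pass without mouse 1 or mouse 4 (adjusted p up to 0.0573), or with the processed signals (adjusted p = 0.0606). Of 27 partners of PGC-1 and genes of mitochondrial biogenesis, 1 rose, 1 fell and 25 did not pass, against 16.1% of all genes changed. Their median was 0.00, and 0.16 with median centring. Esrra, the oestrogen-related receptor through which PGC-1α induces mitochondrial genes, was at 0.32 (SE 0.06, adjusted p = 0.0134), and its relative Esrrg fell (adjusted p = 0.000744). Esrrg exceeded background on 1 of 6 arrays in Fra-1hep and on 6 in wild type, so the size of its fall is poorly set. It passed the filter through the wild-type channel alone. The fitted log2 value was -0.70, it ran from -3.18 with the processed signals to -0.62 in the mouse arrays alone, and a further probe was at -0.55. Esrra did not pass with the processed signals (adjusted p = 0.0608).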

How the data were processed

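Liver RNA with an integrity score above 7.8 was amplified and labelled (100 ng) and measured on 6 arrays of 62976 spots, per the labels' protocols. The deposited scanner files come from Agilent Feature Extraction (the headers give 10.7.3.1, and the submitters' processing notes 10.7). Median spot and background intensity and a processed intensity, background-subtracted and dye-normalised by that software, stand in the deposited files per the file headers. The log10 ratio of Cy5 over Cy3 was computed by the same software from the processed signals per the file headers, and further columns mark spots above background or uneven. The authors' deposited table holds log2 ratios of the processed signals, turned to Fra-1hep over wild type and not centred (column medians from -0.18 to 0.06). It differed from the scanner files by a median of at most 1.75e-07.

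Here, median signals were corrected with normexp (offset 50) in limma 3.58.1 (R 4.3.3 with data.table, version 1.17.8) and normalised by loess within each array. Marked spots (190 to 301 per array) were left out, replicate spots were averaged, and the offset pulls dim ratios towards 0. Signals quoted per channel are the processed ones. A probe was tested if well above background on at least 3 of the 5 mouse arrays in the Fra-1hep channel or 3 of 6 in wild type, by the larger part of its spots. The fit had a genotype coefficient (reversed on the dye-swapped array), a dye constant, 3 residual and 5.15 prior degrees of freedom. It gives the dye-swapped array as much weight as all mice together, and that array's own error is not estimated. Tests are 2-sided. The fit was tested on simulated data.

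Probes were named through RefSeq accessions of the GRCm38.p6 gene list (26056 of 55681 with 1 symbol). The arrays were designed on mm9, so gene positions are not given. Members and lists were chosen with earlier results of these data known. Genes named outside the 10 are the 4 largest changes of a list in each direction and the 3 closest in pattern.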

Additional observations from a re-analysis of the deposited data

Results flagged for a closer look

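Of 24 sets of 4 mouse samples checked (19 probes and 5 list medians), 1 held a sample far from the others. For Med1 probe A_51_P324082 mouse 5 stood at -0.13, while the other samples lay between 0.17 and 0.21. Chance gives such a gap in about 1 of 20 sets. The other Med1 probes that did not pass showed no such gap, and the log2 ratio of the dye-swapped pool on this probe was 0.14.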

How the results depend on the processing

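Pparg and the Med1 probe A_55_P2092501 passed in the same direction under all 16 alternatives with a test, with Pparg at -1.59 to -1.30 and the Med1 probe at -0.82 to -0.62. Within the slide that held mice 3 and 4 and the dye-swapped array they were at -1.48 and -0.82, and the Rxrg probe that fell was at -0.42. Over the 19 probes and all alternatives, 280 of 295 values kept direction and side of the threshold, 3 lost the call (all of Rxrg), 4 gained it and 8 changed sign. The alternatives are not all distinct, as the authors' deposited table repeats the processed signals. The losses of Rxrg in those settings are therefore the same result. Changes to the filter, the probes per gene or the variance model leave a fitted value as it is, so direction could not change.

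Without the dye-swapped array and the dye term, 7585 probes changed instead of 3483, with 6 of the receptor and cofactor probes, 9 RXR partners, 7 other coregulators, 5 Mediator genes and 7 PGC-1 partners. There dye and genotype cannot be told apart. With the processed signals 1626 probes changed (1624 in the authors' deposited table). Both gave 12 PPAR targets, 0 RXR partners, 2 other coregulators, 0 Mediator genes (2 at an unadjusted p under 0.05 in limma) and 1 PGC-1 partner. An offset of 16 gave 2 RXR partners and 0 Mediator genes (1 unadjusted), median centring 2 Mediator genes, and requiring both channels above background on all arrays 1 PGC-1 partner, since Esrrg then was not tested. The cause of the other shifts was not tested. Leaving out each mouse in turn gave 3 to 4 RXR partners and 0 to 1 Mediator genes. Without mouse 2 or mouse 3 the other of the pair was kept, so the sample they share was never left out. Sign changes, none past the threshold, were seen with median centring for Rxra (0.077), Rxrb (0.14), the brighter Rxrg probe (0.017), the dimmer Ppargc1a probe (0.011) and Ncor1 (0.074). Ppard ran from -0.0081 to 0.032 when single mice were left out, and Med1 A_55_P2024095 was at -0.030 in the mouse arrays alone. Slide as a random block changed no call of the 19 probes. Each ratio sets the Fra-1hep channel against the wild-type channel of the same array. Single Fra-1hep mice could not be paired with single wild-type mice, because the wild-type pool is 1 sample.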

Other observations

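Among 43 promoter windows of the PPAR targets (35 of the 47 genes had one), 11.6% held the letters TGANTCA, against 7.81% of all windows. With any base at N, both shares can include matches that are not AP-1 sites. The genes were Acadvl, Cidec, Creb3l3, Plin5 and Retsat. Their fitted directions differed, with Cidec higher, Retsat lower, and Acadvl, Creb3l3 and Plin5 not passing. The hexamer AGGTCA occurred in 27.9% of the target windows and in 16.3% of all windows. Factor binding was not measured.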
